A study of Homo sapiens with 2 samples.

Results

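The 40 genes described here encode the enzymes of glycolysis and lactate production, the transporters that carry glucose in and lactate out, the kinases that hold back pyruvate dehydrogenase, and a set of genes known to respond to low oxygen. They were taken by symbol from the 37364 genes of the deposited table, and all 40 were found once. RNA came from D407, an established human line that the labels call retinal pigment epithelium (RPE), the pigmented cell layer behind the photoreceptors. The series has 2 libraries, 1 from D407 cells given clusterin and 1 from D407 control cells. Clusterin is an extracellular chaperone protein. Both groups were grown in the same serum-containing medium in air with added CO2, with no low-oxygen treatment named. The labels do not say what the control cells received, and the clusterin dose and time are not given in the sources used here. Which transcripts differ after clusterin is what the comparison asks. With 1 library per group no difference has a replicate check, and every interval below covers counting error only.

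Glycolysis splits glucose into pyruvate. Hexokinase traps the sugar, phosphofructokinase commits it to the pathway, and the lower enzymes, from aldolase to pyruvate kinase, extract energy from the resulting smaller sugars. Lactate dehydrogenase then turns pyruvate into lactate, which leaves the cell through monocarboxylate transporters, while pyruvate dehydrogenase kinases (PDKs) inhibit pyruvate dehydrogenase and so keep pyruvate from becoming acetyl-CoA in the mitochondria. The RPE passes glucose from the choroid to the photoreceptors and takes up the lactate they release. When oxygen is plentiful, prolyl hydroxylases of the EGLN family mark the transcription factor HIF1A for destruction. When oxygen falls, HIF1A pairs with ARNT and binds DNA that holds the letters ACGTG or GCGTG near many of the genes described here. HIF1A is controlled largely as a protein, so its transcript level does not measure its activity.

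The HIF core letters link these genes by background, so the DNA just before the start of 5 of them is shown. CA9, EGLN3 and PDK2 are the genes that lay furthest apart between the libraries by the size rule below, and LDHA and ANKRD37 are shown for their number of matches (ALDOC also held 3). Each run is the 250 bases before the start, 5′ to 3′, from RefSeq on GRCh38.p14. Capitals mark ACGTG on either strand, and CACGTG is the overlap of a match on each strand.
LDHA, chr11:18394313-18394562, plus strand: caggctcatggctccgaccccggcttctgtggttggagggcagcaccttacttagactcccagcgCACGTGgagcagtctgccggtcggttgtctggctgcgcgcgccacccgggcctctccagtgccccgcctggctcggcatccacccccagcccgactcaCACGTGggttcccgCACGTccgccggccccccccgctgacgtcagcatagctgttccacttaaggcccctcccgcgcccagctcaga
ANKRD37, chr4:185396591-185396840, plus strand: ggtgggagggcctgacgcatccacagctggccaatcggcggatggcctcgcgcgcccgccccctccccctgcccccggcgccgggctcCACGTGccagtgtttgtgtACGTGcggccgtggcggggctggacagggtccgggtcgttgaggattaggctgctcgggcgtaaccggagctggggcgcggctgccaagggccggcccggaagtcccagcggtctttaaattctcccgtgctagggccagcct
CA9, chr9:35673678-35673927, plus strand: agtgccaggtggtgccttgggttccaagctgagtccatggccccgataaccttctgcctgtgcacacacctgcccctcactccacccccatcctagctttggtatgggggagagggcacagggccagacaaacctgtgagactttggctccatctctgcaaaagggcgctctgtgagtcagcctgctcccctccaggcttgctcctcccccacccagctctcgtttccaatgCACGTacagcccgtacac
EGLN3, chr14:33951075-33951324, minus strand: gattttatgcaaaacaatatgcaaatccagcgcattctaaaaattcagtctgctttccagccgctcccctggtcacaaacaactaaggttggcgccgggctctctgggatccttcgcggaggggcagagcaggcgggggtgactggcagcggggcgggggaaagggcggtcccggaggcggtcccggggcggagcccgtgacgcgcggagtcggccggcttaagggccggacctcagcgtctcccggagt
PDK2, chr17:50094487-50094736, plus strand: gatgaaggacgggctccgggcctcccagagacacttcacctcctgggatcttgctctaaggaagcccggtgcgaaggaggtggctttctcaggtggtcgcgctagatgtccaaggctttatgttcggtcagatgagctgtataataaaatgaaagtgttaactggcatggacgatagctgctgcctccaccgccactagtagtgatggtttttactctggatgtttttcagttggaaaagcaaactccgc
The LDHA run held 5 matches, ANKRD37 3, CA9 1, and EGLN3 and PDK2 none. The CA9 match lay on the opposite strand and began 14 bases before the start. A window within 2000 bp of the start in the deposited table was found for 31 of the 40 genes. ACGTG occurred in 11 of them (35.5%), against 24.4% of the windows of 7645 measured genes, and GCGTG in 12 (38.7%), against 48.1%. The median GC content of the windows was 69.6% for these genes and 65.6% for the measured genes. By role, ACGTG was found in 6 of 16 glycolysis windows, 1 of 5 transporter and PDK windows, and 4 of 10 windows of hypoxia-responsive genes. A match is a description of these letters only.

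Levels are given as RPKM, reads per kilobase of transcript, scaled to a common library size, so genes can be set side by side. In bulk RNA, fewer cells with a transcript and less of it per cell cannot be told apart. The totals were 38236989 reads for control and 33177090 for clusterin. Reads behind each value could be recovered for all 40 genes. They ranged from 186 reads over both libraries for SLC2A3 to 208861 for GAPDH, with a median of 6178.5. The labelled cell type was checked against marker genes: of 9 RPE markers 2 reached a mean of 1 RPKM. These were MITF, at 9.70 RPKM in control and 9.88 in clusterin, and BEST1, at 2.14 and 1.73. PMEL and SERPINF1 stayed below 1 RPKM, and RPE65, RLBP1, LRAT, TTR and TYR were listed at 0. The simple epithelial keratins KRT7, KRT8 and KRT18 summed to 888 and 897 RPKM in control and clusterin. Of 4 fibroblast markers 3 reached 1 RPKM, with summed levels of 73.3 and 71.5. Most of this was LUM, at 46.2 and 45.7, and DCN, at 25.9 and 24.9. The collagen genes were low, COL1A1 at 1.15 and 0.920 and COL1A2 at 0.0338 and 0.0223. The endothelial, erythroid and photoreceptor markers all stayed below 1 RPKM. The leukocyte gene CD68 stood at 6.17 and 5.93, while PTPRC was listed at 0. The neuronal tubulin TUBB3 stood at 1.73 and 2.31, and MAP2, of the same list, at 0.0314 and 0.0121. The list summed to 1.77 and 2.33. The part of other cell types' transcripts in the values below was not tested.

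The lower steps of glycolysis stood among the most abundant transcripts of both libraries. GAPDH, which oxidises glyceraldehyde 3-phosphate, stood at 1814 RPKM in control and 1819 in clusterin, the 16th highest value of the table in each library. Phosphoglycerate kinase PGK1 stood at 569 and 535 RPKM, pyruvate kinase PKM at 526 and 512, and enolase ENO1 at 490 and 479. Triosephosphate isomerase TPI1 stood at 326 and 319 RPKM, aldolase ALDOA at 264 and 261, and phosphoglycerate mutase PGAM1 at 242 and 240. The lactate dehydrogenases LDHA, at 381 and 359 RPKM, and LDHB, at 263 and 240, lay in the same range. Together these 9 genes held 1.08% of the reads of the control library and 1.06% of the clusterin library.

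The first steps of the pathway were lower. Hexokinases HK1 and HK2 stood at 17.7 and 12.4 RPKM in control and at 17.8 and 12.3 in clusterin. Glucose-6-phosphate isomerase GPI stood at 93.9 and 87.97 RPKM. The phosphofructokinases PFKP, PFKL and PFKM stood at 50.02, 36.3 and 26.4 RPKM in control and at 51.9, 36.5 and 26.4 in clusterin. PFKFB2, PFKFB3 and PFKFB4, which set the level of the phosphofructokinase activator fructose 2,6-bisphosphate, were the lowest glycolytic genes, between 3.32 and 7.47 RPKM in either library. The order of the 20 genes by level spanned GAPDH at the top and PFKFB3 at the bottom in both libraries.

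**Figure D1:**
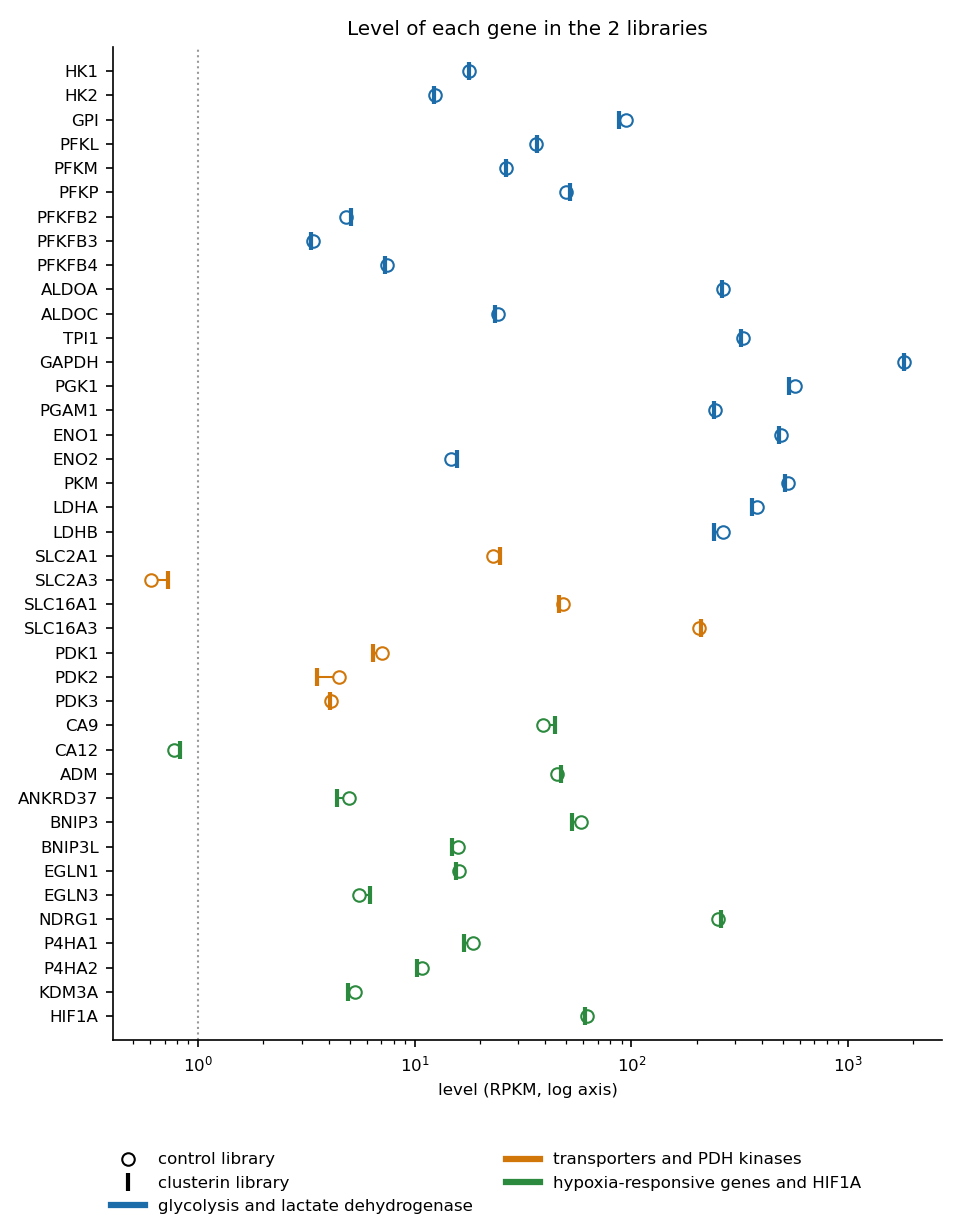
Level of each of the 40 genes in RPKM on a log axis; open circles are the control library, vertical ticks the clusterin library, colours the roles, and the dotted line 1 RPKM. The enzymes from ALDOA to LDHB, ALDOC and ENO2 apart, stand at 239.9 RPKM or more in both libraries, while SLC2A3 and CA12 lie below 1 RPKM.

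Each difference below is log2((clusterin RPKM + 1)/(control RPKM + 1)), and genes whose mean level reached 1 RPKM are called measured. This scale understates the change of low genes, so the plain RPKM ratio is given beside it. Of the 40 genes, 38 were measured, and none was 2-fold apart (0.219% of the 13244 measured genes were). By the smaller size rule, a difference of at least 0.15 (a ratio of about 1.11), 2 were higher in clusterin, against 6.15% of measured genes, and 1 was lower, against 19.8%. The median difference was -0.03 for the 38 and -0.06 for all measured genes. Of the 38, 25 lay below 0, as did 70.2% of measured genes, and 26 lay above the median of all measured genes, as 50% do by construction. The median RPKM ratio of all measured genes was 0.953, which is the general offset between the libraries. With the median log2 ratio set to 0 in place of the deposited scaling, 11.2% of measured genes were higher and 10.2% lower by the size rule. On that scale the median of the 38 genes was 0.04 in place of -0.03, and 28 of the 40 ratios were above 1.

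The 20 glycolytic genes held close together, and none passed the size rule on the deposited scale (1, ENO2, did with the median set to 0). Their median difference was -0.02, their range -0.13 to 0.09, and 16 of 20 lay above the median of all measured genes. GAPDH, from 111697 control and 97164 clusterin reads, gave an RPKM ratio of 1.003, with 0.994 to 1.01 as the 95% limits from counting. ALDOA had a ratio of 0.989 (0.974 to 1.01), PGAM1 0.990 (0.968 to 1.01), TPI1 0.980 (0.962 to 0.999) and ENO1 0.978 (0.967 to 0.990). These 5 abundant genes, and PKM at 0.973 (0.962 to 0.984), had intervals wholly above the general offset of 0.953.

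A smaller set of abundant glycolytic genes lay at or below the offset. LDHB, the lactate dehydrogenase subunit that favours making pyruvate from lactate, had the lowest ratio of the 20, 0.911 (0.890 to 0.933), from 16109 and 12734 reads. PGK1 had a ratio of 0.940 (0.928 to 0.952). The intervals of LDHB and PGK1 lay wholly below the offset, that of PGK1 only narrowly, with an upper limit of 0.9522 against 0.9526. Of 51 genes with a similar number of reads to PGK1, 41.2% had a ratio as low. The median ratio of those genes was 0.949, inside the PGK1 interval, so PGK1 was not unusual for its depth. For LDHB, 13.0% of 316 genes with a similar number of reads had a ratio as low. LDHA, whose subunit favours making lactate, had a ratio of 0.942 (0.928 to 0.956), and GPI 0.937 (0.916 to 0.959), with intervals that held the offset.

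The upstream and low-abundance isozymes were near 1 or slightly above. HK1 had a ratio of 1.002 (0.949 to 1.06), HK2 0.991 (0.942 to 1.04), PFKL 1.01 (0.965 to 1.05) and PFKM 1.0001 (0.955 to 1.05). PFKP, the platelet-type phosphofructokinase, had a ratio of 1.04 (0.9996 to 1.08). ENO2, the enolase best known from neurons, had the highest ratio of the glycolytic genes, 1.07 (0.987 to 1.15), at 14.6 RPKM in control and 15.6 in clusterin. Of the neuronal markers, TUBB3 was higher in clusterin (2.31 against 1.73 RPKM) and MAP2 lower (0.0121 against 0.0314). PFKFB2 stood at 4.83 and 5.10 RPKM with a ratio of 1.05 (0.983 to 1.13), and PFKFB3, PFKFB4 and ALDOC had ratios of 0.983, 0.979 and 0.977 with intervals that held both 1 and the offset.

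Among the transporters, the main glucose carrier was higher in the clusterin library. SLC2A1 (GLUT1), the glucose transporter of the RPE and of the blood-retina barrier, stood at 22.9 RPKM in control and 24.8 in clusterin, from 3210 and 3018 reads, a ratio of 1.08 (1.03 to 1.14). Its difference of 0.11 did not reach the size rule. Of 2373 genes with 0.5 to 2 times its reads, 2.61% had a ratio as high. SLC2A3 (GLUT3) had 0.604 RPKM in control (91 reads) and 0.727 in clusterin (95 reads), a ratio of 1.20 (0.893 to 1.62), so no difference was detectable at this depth.

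The lactate transporters went in opposite directions around 1. SLC16A3 (MCT4), the exporter of strongly glycolytic cells, had 204 RPKM in control and 209 in clusterin (ratio 1.02, 1.002 to 1.04). SLC16A1 (MCT1), which also carries lactate inward, had 48.4 and 46.5 RPKM (ratio 0.960, 0.931 to 0.991), which holds the general offset. The ratio of SLC16A3 lay above that offset.

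PDK2 had the lowest ratio of the 40 genes and was the 1 gene past the size rule on the low side. PDK2 (chromosome 17, 50094737 to 50111369, GRCh38), a pyruvate dehydrogenase kinase present in most tissues, stood at 4.46 RPKM in control and 3.52 in clusterin, from 578 and 396 reads. Its difference was -0.27 and its ratio 0.790 (0.693 to 0.899). Of 5227 genes with 0.5 to 2 times its reads, 3.25% had a ratio as low. PDK1, the kinase most closely tied to HIF1A, had 7.05 and 6.41 RPKM (ratio 0.909, 0.835 to 0.990), and PDK3 at 4.08 in both libraries, a ratio of 0.998 (0.936 to 1.06). The 6 measured transporter and kinase genes had a median difference of -0.03, and 4 of them lay above the median of all measured genes. With the median set to 0 that median was 0.03.

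**Figure D2:**
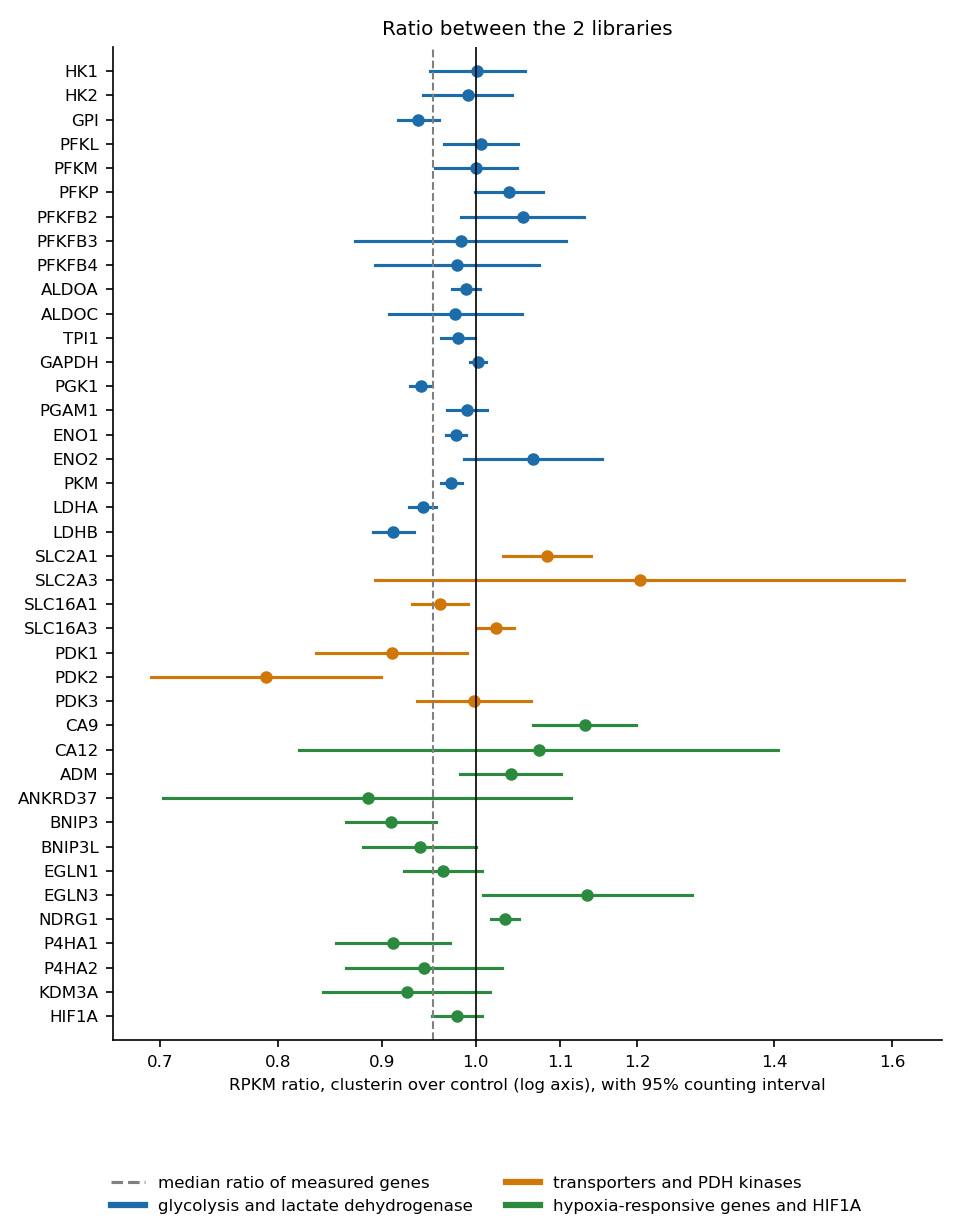
RPKM ratio of clusterin over control for each gene on a log axis, with its 95% counting interval; colours are the roles, the solid line is 1 and the dashed line the median ratio of measured genes, 0.953. PDK2 lies lowest at 0.790, CA9 and EGLN3 at 1.13 are the highest of the measured genes, and the abundant glycolytic genes sit between 0.911 and 1.003.

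The hypoxia-responsive genes split, with members on both sides of the general offset. CA9 and EGLN3 were the 2 genes past the size rule on the high side. CA9 (chromosome 9, 35673918 to 35681159, GRCh38), a membrane carbonic anhydrase that is widely used as a marker of HIF activity, stood at 39.1 RPKM in control and 44.2 in clusterin, from 2321 and 2277 reads. Its difference was 0.17 and its ratio 1.13 (1.07 to 1.20), and 1.04% of 3260 genes with 0.5 to 2 times its reads had a ratio as high. EGLN3 (chromosome 14, 33924215 to 33951083, GRCh38), a HIF prolyl hydroxylase that is itself induced by HIF, stood at 5.50 and 6.23 RPKM, from 572 and 563 reads. Its difference was 0.16 and its ratio 1.13 (1.01 to 1.28), with 3.49% of 5324 genes of like depth as high.

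Next to these stood abundant genes with smaller ratios above 1. NDRG1, a stress- and differentiation-related gene and the most abundant of the hypoxia set, had 251 and 259 RPKM (ratio 1.03, 1.02 to 1.05). ADM, which encodes the vasodilator peptide adrenomedullin, had 45.4 and 47.2 RPKM (ratio 1.04, 0.982 to 1.10). The intervals of CA9, EGLN3, NDRG1 and ADM all lay wholly above the general offset. CA12, a second membrane carbonic anhydrase, stood at 0.770 and 0.827 RPKM from 117 and 109 reads, and its interval of 0.819 to 1.41 was too wide to place it.

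Another 6 hypoxia-responsive genes had ratios below 1. BNIP3, a mitophagy receptor of the BCL2 family, had 58.4 and 53.1 RPKM (ratio 0.909, 0.864 to 0.957), and its relative BNIP3L at 15.8 and 14.9 RPKM, a ratio of 0.939 (0.880 to 1.001). The collagen prolyl hydroxylases P4HA1 and P4HA2 had ratios of 0.911 (0.854 to 0.971) and 0.943 (0.864 to 1.03). The histone demethylase KDM3A had a ratio of 0.925 (0.842 to 1.02). ANKRD37 had the lowest difference of the set, -0.14, with 4.96 RPKM (177 reads) in control, 4.39 (136 reads) in clusterin and a wide interval of 0.703 to 1.11. All 6 intervals held the offset of 0.953.

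HIF1A itself was a well-expressed transcript, at 62.4 RPKM in control and 61.1 in clusterin, a ratio of 0.979 (0.951 to 1.01). EGLN1, the main oxygen-sensing hydroxylase, had 16.02 and 15.4 RPKM (ratio 0.964, 0.922 to 1.01). Over the 12 measured genes of the hypoxia set the median difference was -0.06, near that of all measured genes, with 6 above and 6 below it.

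**Figure D3:**
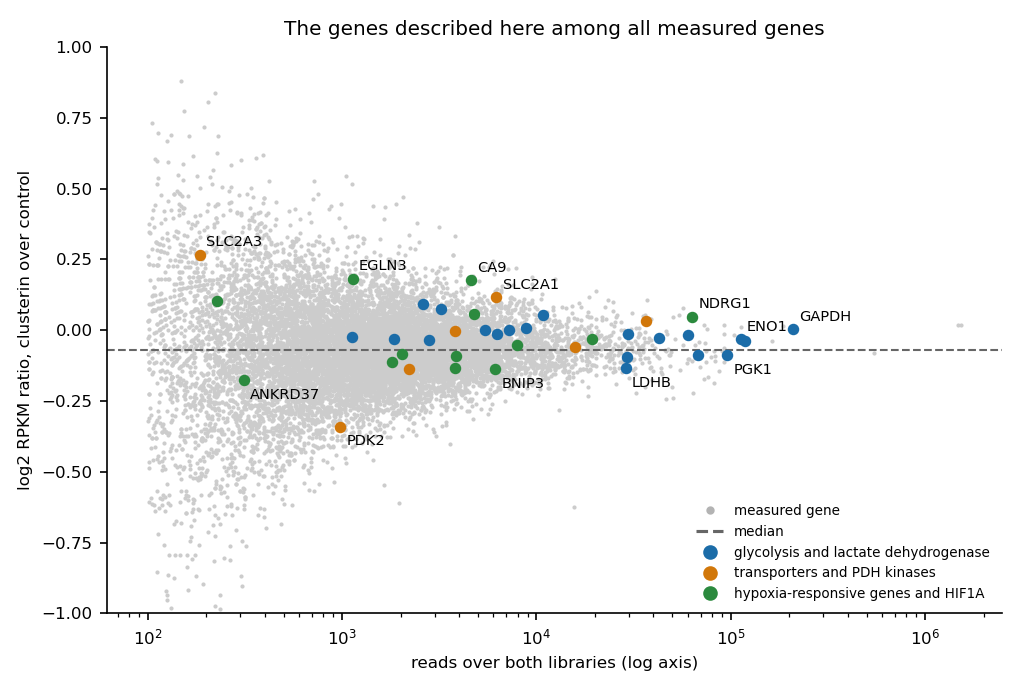
log2 of the RPKM ratio, clusterin over control, against reads over both libraries on a log axis; grey points are 12340 measured genes with at least 100 reads (5 lie beyond the axis), coloured points the 40 genes by role, and the dashed line the median of measured genes. Most of the deeply read glycolytic genes lie on or above the dashed line, and CA9 lies toward the top and PDK2 toward the bottom of the grey points at their depth.

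More of these genes had a counting interval wholly above the general offset than wholly below it. The counting interval lay wholly above the median ratio for 17 of the 38 measured genes, against 11.7% of 13203 measured genes with recovered reads, and wholly below it for 3 (LDHB, PGK1 and PDK2), against 10.6%. By role, those above were 11 of 20 glycolytic genes, 2 of 6 transporters and kinases, and 4 of 12 hypoxia-responsive genes. Deeply read genes have narrow intervals, so the depth behind these counts matters. Among 588 genes with at least 10000 reads, 29.1% lay wholly above and 25.3% wholly below. Of the 15 members at that depth, 9 lay wholly above and 2 below, LDHB and, by a narrow margin, PGK1.

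By q below 0.05 in the authors' deposited table, 12 of the 40 genes were called. Such q-values compare 2 libraries, not the conditions. Higher in the authors' deposited table were CA9 (q 0.000976), NDRG1 (q 0.000929) and SLC2A1 (q 0.0193), 3 genes, against 1.63% of the 20642 genes above 0. Those lower numbered 9, against 10.4% in the authors' deposited table: GPI, PGK1, ENO1, PKM, LDHA, LDHB, PDK2, BNIP3 and P4HA1. These calls are set against a ratio of 1, not against the general offset of 0.953. Of the 9, ENO1 and PKM had counting intervals wholly above that offset. GPI, LDHA, BNIP3 and P4HA1 had intervals that held it. Calls depended on depth, as 54.8% of genes with at least 10000 reads had such a q and were lower. At that depth 6 of 15 members were lower and 1, NDRG1, was higher, against 54.8% and 4.93% of all genes that deep. EGLN3, at a deposited q of 0.154 in the authors' deposited table, was not among the calls.

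The balance of isozymes within most families differed by at most about 1 percentage point between the libraries. ENO1 held 97.1% of the summed RPKM of ENO1 and ENO2 in control (95% exact Clopper-Pearson interval 96.9 to 97.3) and 96.8% in clusterin (96.7 to 97.01). ALDOA held 91.6% and 91.7% of its pair, SLC2A1 97.4% and 97.2%, and CA9 98.1% and 98.2%. HK1 and HK2 were shared more evenly, with HK1 at 58.9% in control and 59.2% in clusterin. LDHA held 59.1% (58.7 to 59.6) and 59.95% (59.5 to 60.4) of the summed LDHA and LDHB level.

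Phosphofructokinase was a mixture of 3 isozymes, PFKP at 44.4% and 45.2%, PFKL at 32.2% and 31.8%, and PFKM at 23.4% and 22.97%. PFKFB4 led PFKFB2 and PFKFB3, at 47.6% and 46.5%. BNIP3 held 78.7% and 78.1% of its pair, and P4HA1 63.2% and 62.4% of the P4HA1 and P4HA2 level. The intervals of the 2 libraries overlapped for these families.

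The intervals did not overlap for SLC16A3, which held 80.8% (80.4 to 81.2) of the summed SLC16A1 and SLC16A3 level in control and 81.8% (81.4 to 82.2) in clusterin. They also did not overlap for PDK3, at 26.2% (24.99 to 27.5) of the summed PDK1, PDK2 and PDK3 level in control and 29.1% (27.7 to 30.6) in clusterin, while PDK2 went from 28.6% (26.8 to 30.4) to 25.1% (23.2 to 27.2) and PDK1 stood at 45.2% and 45.8%. PDK4, a kinase of the same family that is not among the 40 genes and not in these shares, was more abundant, at 18.3 and 16.4 RPKM (ratio 0.894, 0.843 to 0.948), and passed the size rule on the low side at -0.15. EGLN3 held 25.5% (23.9 to 27.2) of the EGLN1 and EGLN3 level in control and 28.8% (26.95 to 30.6) in clusterin. For EGLN3, PDK1 and PDK2 the intervals of the 2 libraries overlapped. Overlap does not show that the shares were equal, and how often other gene families overlap was not counted.

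**Figure D4:**
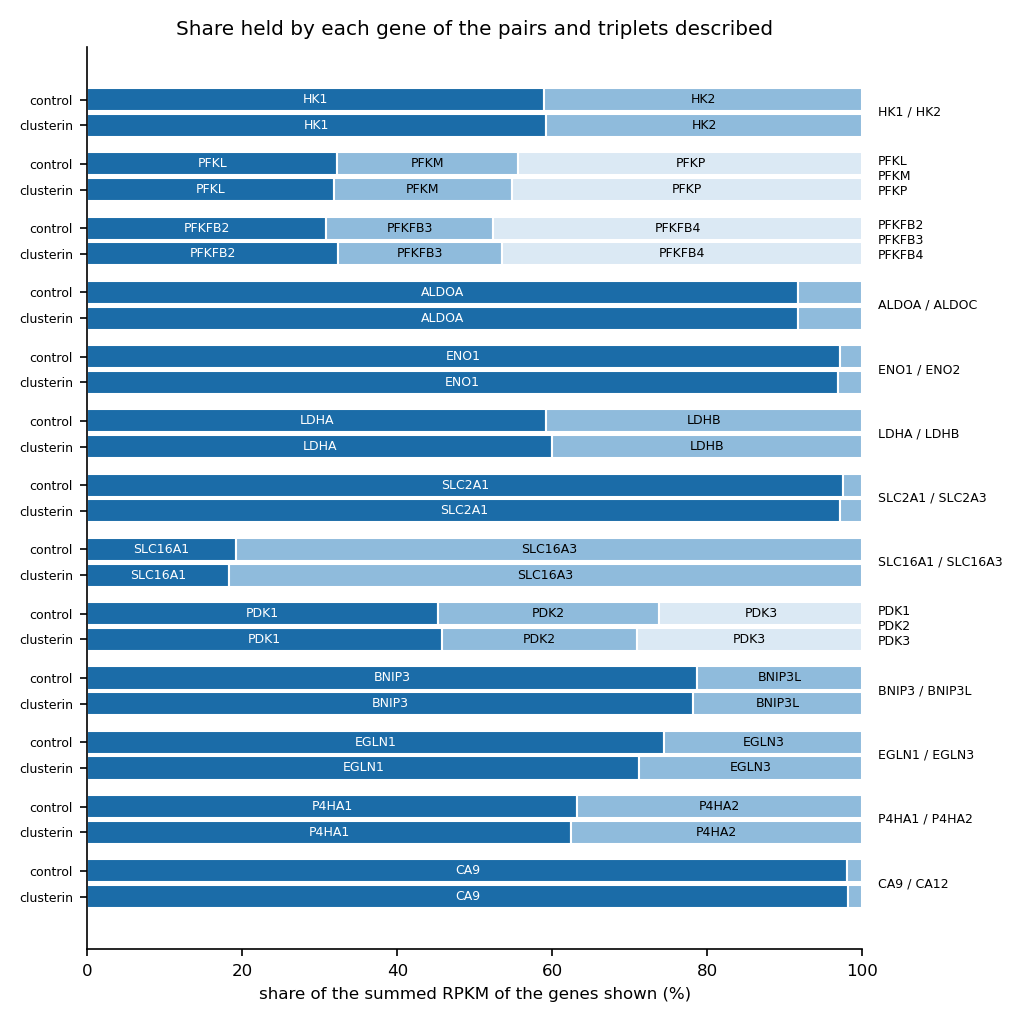
Share of summed RPKM held by each gene of 13 pairs or triplets of related genes among the 40, in percent, with the control library in the upper and the clusterin library in the lower bar of each pair. The bars of a pair differ by at most 3.46 percentage points, the difference seen for PDK2.

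Some reads cannot be assigned with certainty. Another listed gene above 0 overlapped 14 of the 40 genes, and the strand setting of the counting is not given in the sources used here. HIF1A-AS2, antisense to HIF1A, stood at 20.7 and 21.7 RPKM. ARHGEF39, on the strand opposite CA9, stood at 4.69 RPKM in control and 3.82 in clusterin, lower where CA9 was higher. YOD1, opposite PFKFB2, stood at 8.56 and 8.02 RPKM, which is 177% of the PFKFB2 level in control. UFSP2, opposite ANKRD37, stood at 2.45 and 1.88 RPKM. GAPDH, PGK1, LDHA and other glycolytic genes have processed pseudogenes in the genome, and reads shared with these copies cannot be told apart.

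The machinery that controls HIF was measured for 15 of 16 listed genes, with a median difference of -0.03. By the size rule 1 was higher and 3 lower, against 6.15% and 19.8% of all measured genes. TCEB2 (elongin B), a partner of the VHL tumour suppressor in the complex that destroys HIF1A, had 102 and 113 RPKM (ratio 1.12, 1.07 to 1.17). CUL2, the scaffold of the same complex, had 4.01 and 3.32 RPKM (ratio 0.827, 0.737 to 0.927), and the ubiquitin ligase SIAH1 at 5.38 and 4.52, a ratio of 0.841 (0.734 to 0.962). CITED2, which competes with HIF1A for a coactivator, had 8.61 and 8.88 RPKM (ratio 1.03, 0.925 to 1.15).

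Among 31 other hypoxia-responsive genes 28 were measured, with a median of -0.08. By the size rule 2 were higher and 3 lower, against 6.15% and 19.8% of all measured genes. ANGPTL4, a secreted regulator of lipoprotein lipase, stood at 10.3 RPKM in control and 12.8 in clusterin, a ratio of 1.25 (1.13 to 1.38), and JMJD6 at 6.16 and 7.03, a ratio of 1.14 (1.06 to 1.23). INSIG2, a sterol sensor, had a ratio of 0.821 (0.714 to 0.943), and the histone demethylase KDM4C 0.829 (0.748 to 0.9196).

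Of 38 neighbouring enzymes of carbohydrate metabolism, 26 were measured and 6 were listed at 0 in both libraries. HK3, a further hexokinase, and LDHC, the lactate dehydrogenase of the testis, were among those at 0. By the size rule none was higher and 4 were lower, against 6.15% and 19.8% of all measured genes. The median was -0.06. ENO3, the muscle enolase, had 5.94 and 4.40 RPKM (ratio 0.741, 0.623 to 0.879). The ratio of ENO2 was 1.07, with an interval of 0.987 to 1.15 that held 1. GOT1, an aminotransferase of the malate-aspartate shuttle, had a ratio of 0.833 (0.759 to 0.912). PGAM2, the muscle mutase, had a ratio of 1.12 (0.834 to 1.50).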

How the data were processed

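The authors deposited 1 table with a level per gene for each library. The header names no unit. It was inferred: for 487 of 530 small RNA genes, both levels times gene length gave whole numbers within 0.02 reads at 1 total per library, so the deposited levels are called RPKM. The tools named are Bowtie, TopHat and Cuffdiff and the build hg19, per the submitters' processing notes. No versions are given in the sources used here. For each gene the authors also deposited its p-value, its q-value and its log2 fold change. The p matched an Audic-Claverie p computed on these reads in 435 of 439 cases, so p and q cover read sampling only. A search for the gene length that makes both levels whole numbers with the right p recovered reads for 20576 of 20642 genes above 0 (99.7%). Whether a unit is a read or a read pair is unknown.

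The difference used a pseudocount of 1 RPKM and a mean of at least 1 RPKM. Intervals of ratios are exact 95% Clopper-Pearson limits on the share of reads from clusterin. No test between groups was made. The steps were tested on simulated data (Python 3.11.15, SciPy 1.17.1). All 40 genes started or ended within 2000 bp of RefSeq on GRCh38, so the deposited coordinates are printed as GRCh38 although the notes name hg19. The members, lists and rules were chosen with earlier results of these data known. All members are accounted for; of the other lists, the 2 highest and 2 lowest measured genes are named, except 1 that is not reported here, and PDK4, the overlapping genes, markers and genes at 0 were named after their values were seen. Other pseudocounts, filters and scalings were tried.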

Additional observations from a re-analysis of the deposited data

How the results depend on the processing

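The differences are small, and their sign depends on the scaling of the libraries. With the median log2 ratio of measured genes set to 0, which moves the control by a factor of 0.953 and the median of all genes by 0.06, the median of the 38 genes turned to 0.038, that of the glycolytic genes to 0.047, that of transporters and PDKs to 0.032, that of the hypoxia set to 0.0014, that of HIF machinery to 0.016 and that of neighbouring enzymes to 0.0023, while that of other hypoxia-responsive genes moved to -0.0064. Quantile normalization gave 0.0075, 0.012 and 0.012 for all, glycolytic and transporter genes, 0.022 for HIF machinery and -0.0010 for neighbouring enzymes. Below 0 lay 12 of the genes after the first scaling and 16 after quantile normalization, against 50% and 51.2% of all measured genes. PDK2, CA9 and EGLN3 kept their directions under both. Median scaling took the ratios of many members beyond their counting intervals, among them ALDOA, TPI1, GAPDH, PGK1, PGAM1, ENO1, PKM, LDHA and LDHB.

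Counts past 0.15 were small, and 1 gene moves them. The shares of all genes past it moved too, from 6.15% higher and 19.8% lower to 8.39% and 26.2% with a pseudocount of 0.1, 2.42% and 6.18% with 5, 7.14% and 18.5% for all genes above 0, 4.32% and 15.9% at a mean of 5 RPKM, 2.04% and 14.5% at 1000 reads, 11.2% and 10.2% after median scaling, and 11.3% and 10.2% after quantile normalization. After median scaling 4 members were higher, of them 1 glycolytic and 1 transporter gene; 1 gene of HIF machinery was lower, and 3 neighbouring enzymes were higher and 2 lower. After quantile normalization 1 transporter gene was higher, 1 other hypoxia-responsive gene lower, and 2 neighbouring enzymes higher and 2 lower. A pseudocount of 0.1 gave 2 members lower, 1 of them in the hypoxia set, 5 other hypoxia-responsive genes lower and 1 neighbouring enzyme higher. A pseudocount of 5 gave 1 member higher, from the hypoxia set, 1 gene of HIF machinery lower, 1 other hypoxia-responsive gene higher and 0 lower, and 2 neighbouring enzymes lower. Keeping all genes above 0 gave 1 neighbouring enzyme higher. A mean of at least 5 RPKM, which leaves out PDK2, gave 0 members and 0 transporters or PDKs lower, 1 gene of HIF machinery lower and 1 other hypoxia-responsive gene lower. A minimum of 1000 reads, chosen after seeing the data, also left out PDK2 and gave 0 members and 0 transporters or PDKs lower, and 2 neighbouring enzymes lower. In the authors' deposited table, q below 0.01 left 2 members higher and 8 lower, in place of 3 and 9, and every isozyme share stayed within its counting interval after quantile normalization. No paired analysis was possible because each group has 1 library. For the same reason no library could be left out.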
